A study of Mus musculus with 2 samples.

Results

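The genes described here encode the kinases, motors and structural proteins that carry a cell through mitosis, together with the wider kinesin family. They were chosen by gene symbol: every symbol made of Kif and a digit, and 23 listed genes of mitotic entry, the spindle, the centromere and cytokinesis. Of the 20380 probe sets annotated to exactly 1 gene symbol, 94 belonged to this set, and they represented 46 genes, namely 24 kinesin genes and 22 of the 23 listed genes. No probe set carried the name of the cyclin gene Ccnb1 alone, and that gene was not analysed here.

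The data were 2 single-channel microarrays of mouse embryonic stem (ES) cells, the cultured pluripotent cells of the early embryo. One array held RNA of cells in which the Id1 gene was knocked out (Id1-/-), and the other held RNA of wild-type cells. Both cultures were grown on gelatin, with serum and LIF (leukaemia inhibitory factor), which keeps mouse ES cells self-renewing. The labels do not give the strain, sex, clone number or passage of either line, nor which part of Id1 was removed. Each genotype was measured on 1 array, without replicates. Therefore no test could be made and no p-value is given. Any difference in culture, clone, sex or array cannot be told apart from genotype.

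Entry into mitosis is driven by Cdk1 bound to its cyclins, and the Aurora, Polo-like and NIMA-related kinases then build the spindle. Kinesins are motors that use ATP to walk along microtubules or to take them apart, some in the spindle and others in the transport of vesicles or in cilia. The spindle checkpoint holds the anaphase-promoting complex (APC/C) inactive until chromosomes are attached. ES cells divide quickly, and a large part of a culture is in S, G2 or M phase at any time. Most mitotic genes are transcribed periodically and peak in G2 and M. Their promoters often carry CCAAT boxes, bound by NF-Y, and a cell cycle genes homology region (CHR), bound by the MuvB complexes, with B-MYB in proliferating cells and as DREAM in quiescent ones.

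Promoter sequences were examined because such elements are a property that the choice of genes did not use. RefSeq promoter windows of GRCm38.p6, running from 250 bases before to 50 after the annotated start, were at hand for 25 of the 29 mitotic genes and 14 of the 17 transport and other kinesins (1 window per gene, the entry listed first). Aurkb, Ccna2, Incenp, Kif20a, Kif21b, Kif5a and Kif5b had no entry. The motifs searched on both strands were CCAAT and both forms of the CHR, TTTGAA and TTCGAA, and matches were counted wherever they fell, also where they overlapped. The 7 windows that follow run from 120 bases before to 30 after the start, 5′ to 3′ on the strand of the gene, with matches on either strand in capitals, so that ATTGG marks CCAAT on the opposite strand. Nek2 (chr1:191821353-191821502, plus strand) is shown as the gene with the largest difference among those past the brightness filter, and Prc1 (chr7:80294331-80294480, plus) and Kif4 (chrX:100625945-100626094, plus) as genes that were lower in the knockout. Ccnb2 (chr9:70421525-70421674, minus) and Cdk1 (chr10:69352883-69353032, minus) show CCAAT with a CHR 20 to 60 bases downstream, Kif23 (chr9:61946770-61946919, minus) shows the 2 motifs only 9 bases apart, and Kif1b (chr4:149307704-149307853, minus) is a transport kinesin.
Nek2: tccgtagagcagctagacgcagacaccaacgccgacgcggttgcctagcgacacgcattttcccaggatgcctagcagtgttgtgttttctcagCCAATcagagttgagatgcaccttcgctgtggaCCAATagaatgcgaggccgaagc
Prc1: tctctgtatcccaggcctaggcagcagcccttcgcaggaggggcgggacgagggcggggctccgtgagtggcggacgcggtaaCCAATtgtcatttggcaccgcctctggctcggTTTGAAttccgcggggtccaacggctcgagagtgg
Ccnb2: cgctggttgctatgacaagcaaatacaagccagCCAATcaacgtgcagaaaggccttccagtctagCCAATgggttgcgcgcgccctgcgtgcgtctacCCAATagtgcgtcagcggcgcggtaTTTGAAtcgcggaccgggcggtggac
Cdk1: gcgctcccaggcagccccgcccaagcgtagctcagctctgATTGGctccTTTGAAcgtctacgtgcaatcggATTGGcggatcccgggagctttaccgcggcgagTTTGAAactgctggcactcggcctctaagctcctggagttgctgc
Kif23: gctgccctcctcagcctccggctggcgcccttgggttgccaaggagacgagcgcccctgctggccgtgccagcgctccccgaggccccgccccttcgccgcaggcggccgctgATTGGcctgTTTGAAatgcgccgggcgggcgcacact
Kif4: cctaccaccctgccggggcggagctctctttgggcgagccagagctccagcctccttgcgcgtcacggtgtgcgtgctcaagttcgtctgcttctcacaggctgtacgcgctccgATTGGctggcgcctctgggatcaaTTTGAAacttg
Kif1b: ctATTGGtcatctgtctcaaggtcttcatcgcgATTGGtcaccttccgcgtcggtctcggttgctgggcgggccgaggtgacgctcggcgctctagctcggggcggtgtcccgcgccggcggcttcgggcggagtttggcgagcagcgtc

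A CHR match was found in 20 of the 25 mitotic promoters (80%), against 19.4% of all 27025 promoters and 14.2% of the 6055 promoters of genes past the brightness filter on these arrays. CCAAT was present in 20 of 25 (80%), against 37.9% of all promoters, and 18 of 25 (72%) held both, against 7.7%. In 14 of 25 (56%) a CHR match began 20 to 60 bases downstream of a CCAAT match, a spacing chosen after the positions were seen and found in 1.57% of all promoters. The shares were lower in other mitotic genes past the filter, a list described further on, of which 24 of 50 promoters (48%) held a CHR match, 28 (56%) held CCAAT and 18 (36%) held both. Prc1 had the spaced pair 32 bases apart and Ccnb2 25 bases apart. The Ccnb2 window held 3 CCAAT boxes, beginning 87, 54 and 21 bases before the start. Nek2 had 2 CCAAT matches and no CHR match in its window. Of the 14 transport and other kinesins, 3 (21.4%) held CCAAT (Kif1b, Kif3a and Kif3b) and none held a CHR match in its first entry. With every entry counted, 1 of the 14 (Kif1a) held one. These matches describe letters in a window and are no evidence of binding.

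**Figure D1:**
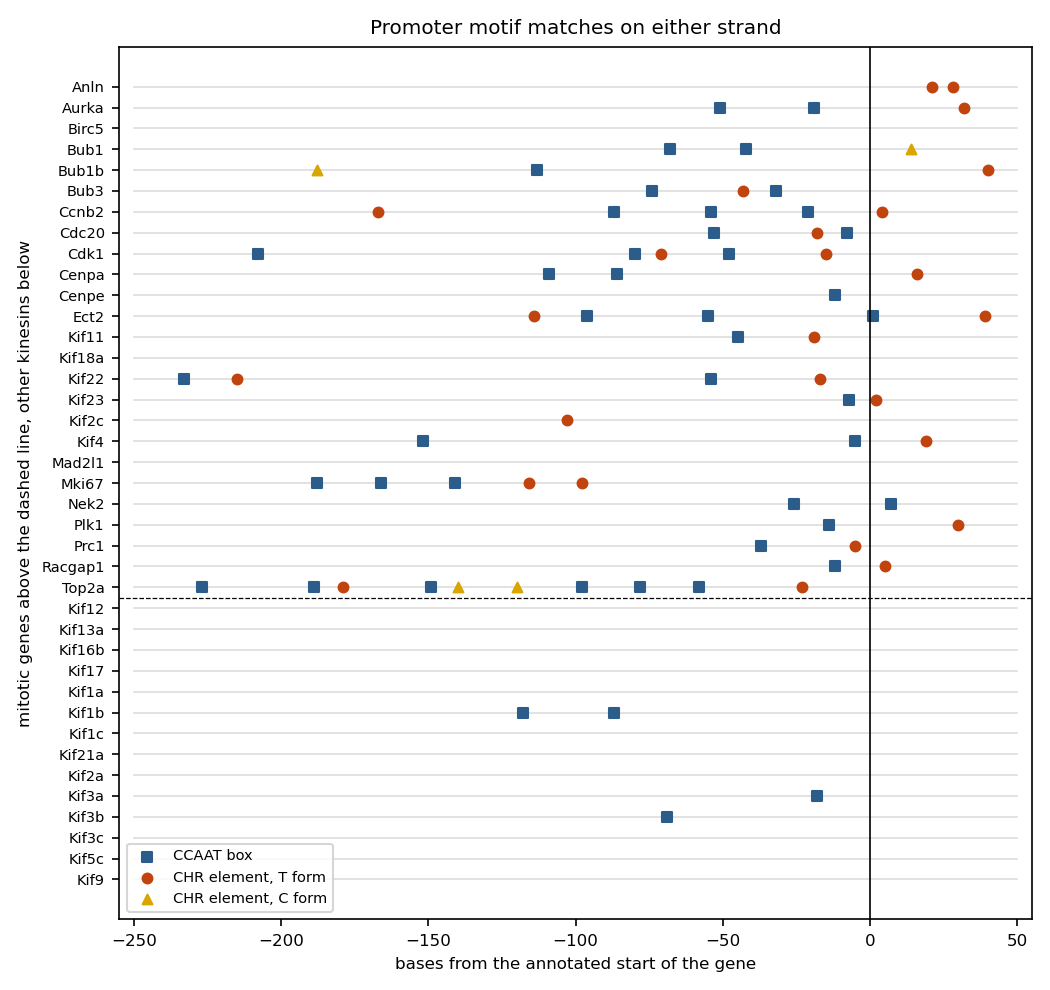
Each line is a promoter window from 250 bases before to 50 bases after the annotated start of the gene (x axis, bases), with squares for CCAAT boxes and circles or triangles for both forms of the CHR element on either strand. Of the 25 mitotic genes above the dashed line, 20 held a CHR match, and none of the 14 other kinesins below it did.

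Intensities are the authors' deposited linear values, 1 for each probe set, which is a group of short probes for the same transcript. The median of each array, controls aside (155.0 for the knockout, 152.5 for the wild type), was subtracted on the log2 scale, and values under the 25th percentile were set to that floor, an intensity of 48.4 or 47.6. A gene is represented by its brightest probe set and was compared where at least 1 array reached its median. All differences are knockout minus wild type, and a difference of at least 2-fold was counted. The Id1 probe set itself read 461 in the knockout against 1045 in the wild type (log2 difference -1.20), and since the removed part is unknown it checks the labels only in part. All 7 ES cell markers examined were past the filter, with 3 above 0 and 4 below. Lower in the knockout were Pou5f1 (6834 and 8636), Sox2 (4032 and 4526), Zfp42 (5361 and 8512, 1.61-fold) and Nanog (2195 and 5423, 2.51-fold). Higher by their brightest probe sets were Lin28a (log2 difference 0.43), Sall4 (0.30) and Dppa4 (0.10). Of 7 fibroblast markers 2 were past the filter, with summed intensities of 723 and 719 over the list, as were 1 of 5 for primitive endoderm (535 and 481), 1 of 5 for trophoblast (442 and 472) and 2 of 5 for neurons (4183 and 7129, mostly from Stmn2). No intensity in these lists was 0, but Postn, Pdgfra, Gata3 and Snap25 lay below the floor on both arrays. The summed intensities include such readings. The part of these markers in the results was not tested.

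Most genes of this set that were past the filter differed little between the arrays, as did most genes on the arrays. Of the 46 genes, 39 were past the filter, including all 29 mitotic genes and 10 of the 17 transport and other kinesins. Of the 39, 38 had both arrays at or above the median, and Kif5a passed through the wild-type array alone. In the knockout, none of the 39 was higher by 2-fold or more and 1 was lower by that much, against 3.92% of all 7369 genes past the filter in each direction (7.84% together). The 39 had a median log2 difference of -0.04 and a range from -1.05 to 0.65, with 18 above 0 and 21 below, where all genes had a median of -0.01 with 48.8% above 0. At 1.5-fold, 2 genes were higher and 3 lower, against 10.5% and 11.5% of all genes.

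**Figure D2:**
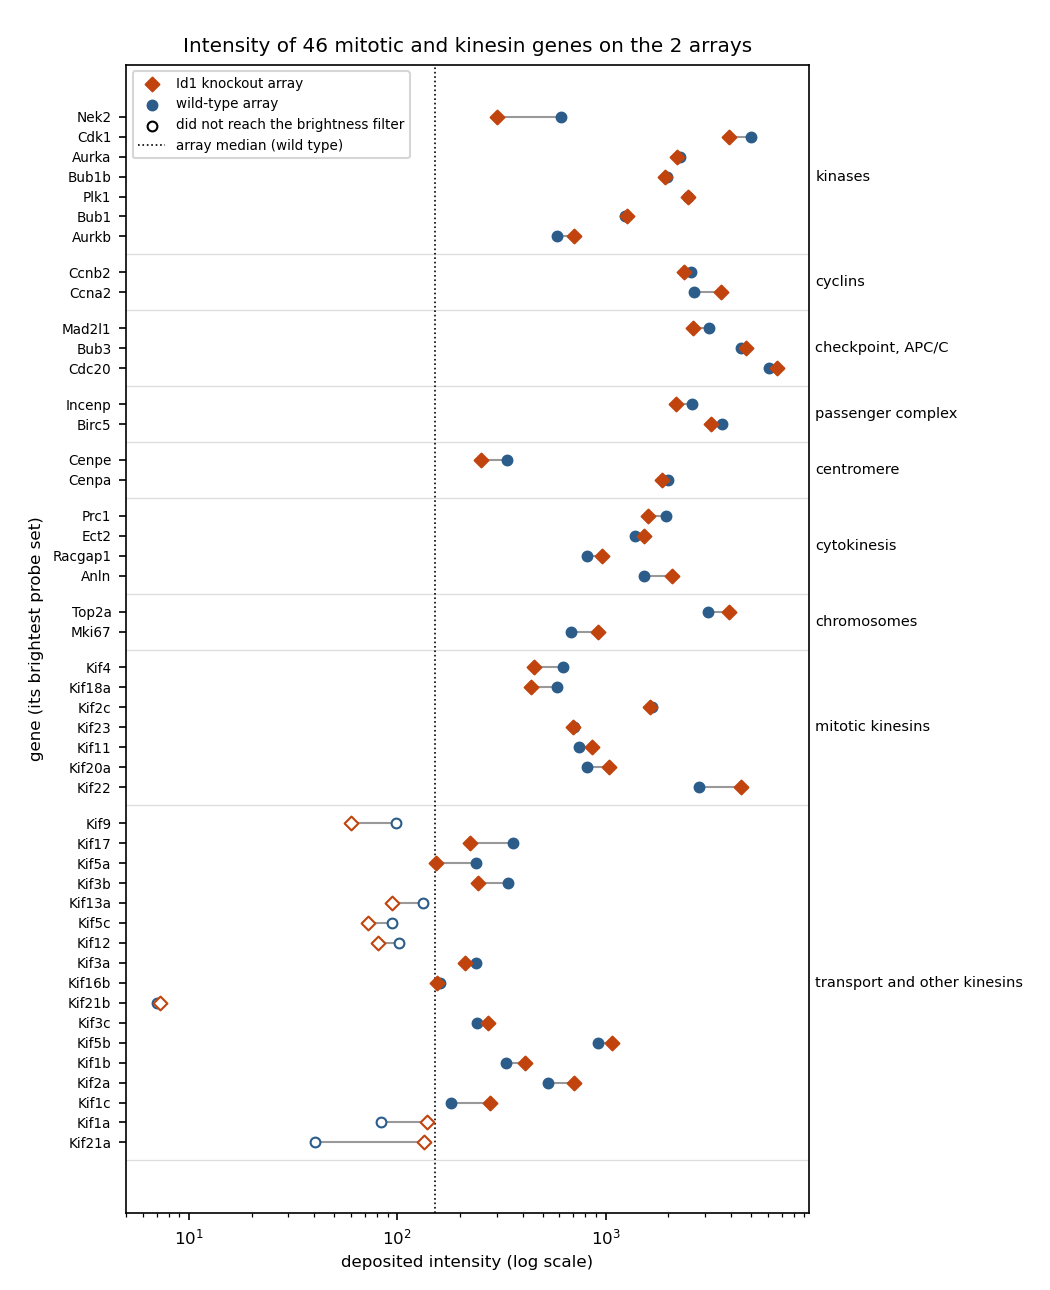
Deposited intensity (x axis, log scale) of the brightest probe set of each of the 46 genes (y axis, grouped by role) on the knockout array (diamonds) and the wild-type array (circles), with open symbols for genes short of the brightness filter. Nek2, at 300.0 and 610, has the widest gap among the mitotic genes, and the 7 open pairs all belong to transport and other kinesins.

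The exception was Nek2, a NIMA-related kinase that loosens the linker between centrosomes before mitosis. Its only probe set read 300.0 in the knockout against 610 in the wild type, which is 2.07-fold lower (log2 difference -1.05). The difference lies just past the 2-fold line, and the next member inside that line was Kif17 at -0.71. Since Nek2 had a single probe set, no second reading of it was available. In RNA from whole cultures, fewer cells in G2 and M phase and less RNA per cell cannot be told apart. As a technical spread, the SD of the log2 difference among a gene's passing probe sets had a median of 0.22 over the 2567 genes that had several, and of 0.30 over the 16 such genes of this set.

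The other mitotic kinases differed little. Plk1, the Polo-like kinase of centrosome maturation and mitotic entry, read 2495 in the knockout against 2499 in the wild type. Aurka, which acts at spindle poles, read 2208 and 2285 (log2 difference -0.07). Bub1, a checkpoint kinase of the kinetochore, read 1267 and 1234, and its partner Bub1b, the BubR1 subunit of the checkpoint complex, read 1928 and 1967. In these 4 genes the arrays differed by at most 1.05-fold. Cdk1, the catalytic core of mitotic entry, was lower in the knockout at 3918 against 4992 (log2 difference -0.37). Aurkb, the kinase of the chromosomal passenger complex, had 2 passing probe sets that went opposite ways, 706 against 588 (0.24) and 233 against 274 (-0.26), so no direction can be given.

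Neither cyclin reached 1.5-fold. Ccna2, the cyclin of S phase and G2, was higher in the knockout by both of its probe sets, 3576 against 2649 (log2 difference 0.41) and 2580 against 1740 (0.54). Ccnb2, a B-type cyclin that activates Cdk1, read 2378 and 2567 (-0.13). The SD of 0.10 between the Ccna2 probe sets describes probes read on the same arrays, and no spread between arrays or cultures was measured.

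Mad2l1, Bub3 and Cdc20, the other checkpoint genes of the set, were within 1.21-fold by their brightest probe sets. Mad2l1, which holds Cdc20 inactive until attachment is complete, read 2635 in the knockout against 3149 in the wild type (log2 difference -0.28). Bub3, the adaptor that brings Bub1 and BubR1 to kinetochores, read 4714 and 4460 (0.06), with 0.31 for its other passing probe set. Cdc20, the activator of the APC/C, read 6685 and 6110 (0.11), and its other probe sets gave -0.07 (5609 and 5801) and 0.57 (586 and 389).

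Of the chromosomal passenger complex, which corrects attachments and later marks the midzone, Birc5 (survivin) read 3195 and 3623 (log2 difference -0.20). Its scaffold gene Incenp read 2176 and 2604 (-0.28) by the brightest of 3 probe sets, of the type that can also match other transcripts, while the other two gave 0.06 and 0.11. At the centromere, Cenpa, the histone H3 variant that marks it, read 1863 and 1996 (-0.12). Cenpe, itself a kinesin that moves chromosomes to the spindle equator, read 253 and 336 (-0.43). Each of these 4 genes was lower in the knockout by its brightest probe set, and none reached 1.5-fold.

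Among cytokinesis genes, 3 of 4 were higher in the knockout and 1 was lower. Anln (anillin), which links actin, myosin and septins in the cleavage furrow, read 2093 in the knockout against 1536 in the wild type (log2 difference 0.42). Racgap1, a subunit of centralspindlin, read 965 and 819 (0.21), with 0.43 for its other probe set. Ect2, the exchange factor that activates RhoA at the furrow, read 1537 and 1383 (0.13). Prc1, which bundles the antiparallel microtubules of the midzone, was lower by both of its probe sets, 1602 against 1959 (-0.31) and 520 against 832 (-0.70). The signals for Top2a, the topoisomerase that separates sister DNA, were 3931 and 3096 (0.32), and those for Mki67, the proliferation marker Ki-67, were 920 and 684 (0.40). Over all 22 non-kinesin mitotic genes, the median log2 difference was -0.04, with quartiles of -0.26 and 0.19.

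The 7 mitotic kinesins had a median log2 difference of -0.04, with 3 above 0 and 4 below. Kif2c, which takes microtubules apart at centromeres, read 1634 and 1662, and its 3 passing probe sets lay between -0.05 and 0.05. Kif23, the motor of centralspindlin, read 699 and 705 (-0.04). Kif11, the motor that pushes spindle poles apart, was higher in the knockout by all 3 of its probe sets, with 863 against 747 for the brightest (0.19) and 0.35 for both others. Kif20a, which brings the passenger complex to the midzone, read 1039 and 819 (0.32). Kif18a, which dampens chromosome movements at the equator, read 437 and 586 (-0.45). These 5 genes stayed within 1.36-fold.

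Kif22, a chromokinesin that pushes chromosome arms outward, had the largest positive difference of the genes past the filter by its brightest probe set, 4456 against 2796 (log2 difference 0.65). That probe set is of the type that can match other transcripts, and the other two read 1123 against 1172 (-0.08) and 661 against 740 (-0.19). Its 3 probe sets therefore do not give 1 direction. The brightest probe sets of Aurkb, Cdc20, Incenp and Kif2c were of the same type as that of Kif22. Kif4, the chromokinesin that works with Prc1 at the midzone, was lower in the knockout at 455 against 628 (-0.49), with a single probe set. Kif4 was the only one of the 46 genes on the X chromosome. X-linked genes as a whole were lower on the knockout array, with a median of -0.55 over 238 genes and 197 of them below 0. The value for Kif4 lay inside their quartiles of -0.96 and -0.17. Eif2s3y, a gene of the Y chromosome looked up after the values were seen, was higher in the knockout by a log2 difference of at least 3.71. That is a lower bound, since its wild-type value lay below the floor, which also pulled its mean log2 intensity down to 5.167. Whether the lines differ in sex chromosomes was not tested.

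**Figure D3:**
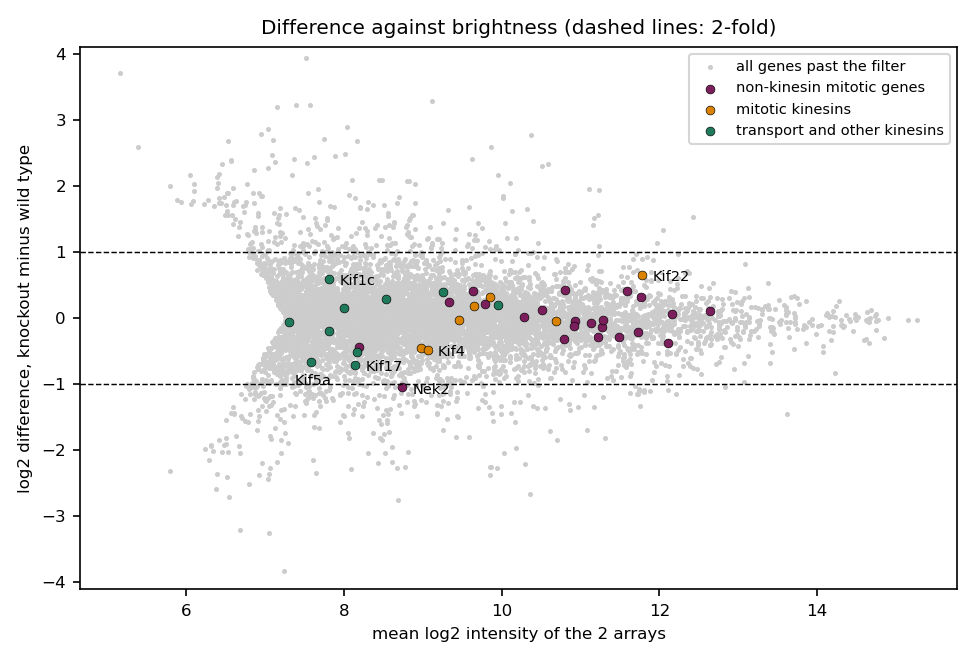
Log2 difference between the arrays (y axis, knockout minus wild type) against the mean log2 intensity of the 2 arrays (x axis) for 7369 genes (grey) and for the mitotic genes and kinesins (coloured). Nek2, at -1.05, is the 1 coloured point past a dashed 2-fold line, and the grey points spread more widely at low intensity.

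Bright genes scattered less than dim ones, with an SD of the log2 difference of 0.42 over genes of a mean log2 intensity of at least 10 and of 0.63 below it. Of the 29 mitotic genes, 27 (93.1%) lay within 0.5 of 0 on the log2 scale, against 72.2% of all genes. Above that intensity, a line drawn after the values were seen, 18 of 19 mitotic genes (94.7%) did so, against 83.2% of 2031 genes. Below that intensity the counts were 9 of 10 mitotic genes and 68.1% of 5338 genes. In 2 lists described further on, 51 of 59 other mitotic genes (86.4%) and 6 of 7 kinesin partners (85.7%) also lay within 0.5 of 0. No test was made of these differences.

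Many of the transport and other kinesins read near or below the array median. Of the 17 genes, 7 did not reach the filter by their brightest probe set, namely Kif12, Kif13a, Kif1a, Kif21a, Kif21b, Kif5c and Kif9. Kif21b, at 7.29 and 7.04, lay below the floor on both arrays. The 10 that passed had a median log2 difference of 0.04 with 5 on either side of 0, and 6 of them lay within 0.5 of 0 on that scale. Kif5b, the widely expressed heavy chain of conventional kinesin, read 1073 in the knockout against 918 in the wild type (0.20). Kif2a, a relative of Kif2c that takes microtubules apart at spindle poles as well as in neurons, read 709 and 528 (0.40), but its 4 passing probe sets ran from -0.16 to 0.40 and so do not give 1 direction. Kif1c, a vesicle motor, was 1.51-fold higher at 279 against 182 (0.59) by its only passing probe set. Another Kif1c probe set, short of the filter, went the other way at 103 against 136 (-0.42).

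Readings of kinesins of cilia and neurons were mixed. Kif17, a motor of dendrites and cilia, read 223 in the knockout against 358 in the wild type (log2 difference -0.71), but its other passing probe set went the other way, at 161 against 117 (0.44). Kif5a, a conventional kinesin of neurons, read 153 and 240 (-0.67). Kif3a and Kif3b form the kinesin-2 motor of intraflagellar transport. Kif3a read 212 and 239 (-0.20) with 0.28 for its other probe set, and Kif3b read 243 and 342 (-0.52) with 0.50 for its other passing one. Kif3c, which can pair with Kif3a in place of Kif3b, read 273 and 241 (0.16), and the endosome motor Kif16b read 155 and 160 (-0.07). For Kif17, Kif3a and Kif3b no direction can be given, since their probe sets disagreed. The higher-reading probe sets of Kif17 and Kif3b passed the filter through the knockout array alone, so a higher knockout value was a condition of their entry.

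Of the 68 member probe sets past the filter, 3 were higher in the knockout by 2-fold or more and 1 was lower by as much, against 4.20% and 3.88% of all passing probe sets with 1 gene symbol. The lower one was that of Nek2, and the 3 higher ones belonged to transport kinesins but were not the brightest of their genes. Each of these 3 passed the filter through the knockout array alone, as did 5 of the 68 in all, so a higher knockout value was a condition of their entry. None of the member probe sets with both arrays at or above the median was 2-fold higher. Kif1a, a vesicle motor of axons, had a probe set that read 172 in the knockout against 21.2 in the wild type. The wild-type value lay below the floor of 47.6, which makes the difference at least 3.55-fold, and the brightest Kif1a probe set, short of the filter, read 139 and 84.0. For Kif1b, which moves mitochondria and vesicles, 1 of 4 passing probe sets read 212 and 94.1 (1.15), while the other 3 lay between -0.03 and 0.50. For Kif5b, 1 of 5 read 305 and 133 (1.17), while the other 4 lay between -0.67 and 0.20.

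**Figure D4:**
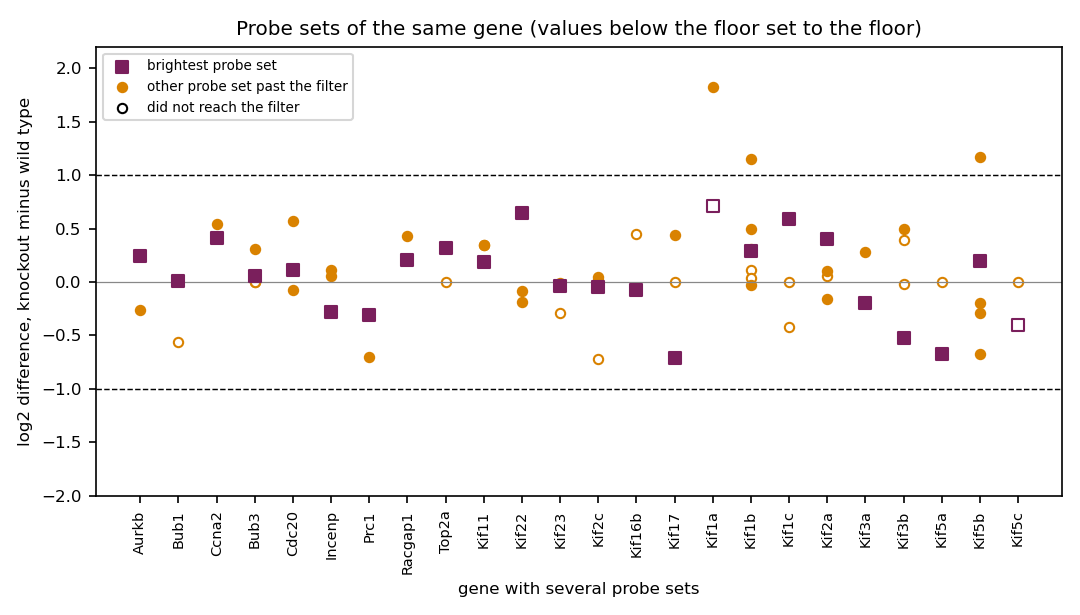
Log2 difference (y axis, knockout minus wild type) of every probe set of the genes with more than 1 (x axis), with squares for the brightest probe set, circles for the others and open symbols for those short of the filter. In Kif1a, Kif1b and Kif5b a circle lies above the upper 2-fold line while the square of the same gene lies below it.

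In 5 of the 16 genes with more than 1 passing probe set, all of these had the same sign (Bub3, Ccna2, Kif11, Prc1 and Racgap1). In 11 the signs were mixed, for Kif17 and Kif3b only through a probe set that passed by the knockout array alone. The same sign throughout was found for 56.8% of the 2567 genes of this kind on the arrays. Prc1 was lower in the knockout by all its passing probe sets, and the other 4 of the 5 were higher.

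Other mitotic genes, on a list of 77 names outside the set, were also mostly close to 0. Of the 63 with a probe set, 59 were past the filter. By brightest probe set none was 2-fold apart in either direction, against 3.92% of all genes each way. This count depends on the names listed: 4 further centromere protein genes past the filter, looked up after the values were seen, were not on the list. Of these, Cenpm read 471 and 1010 (log2 difference -1.12, 2.18-fold lower), Cenpx 440 and 840 (-0.96), Cenpv 855 and 1313 (-0.64) and Cenpo 425 and 301 (0.47). The 59 listed genes had a median log2 difference of -0.09, with 24 above 0 and 35 below. Other passing probe sets of these genes came near the 2-fold line for Nusap1 (-0.97, against -0.12 by its brightest) and Tacc3 (-0.94, against -0.24). The highest of these other readings was 0.55, for Smc4 (0.31 by its brightest). By brightest probe set, the largest negative values belonged to Cep55, an abscission protein, and to Cdc23, an APC/C subunit. Cep55 read 811 against 1317 (log2 difference -0.72, and -0.61 by its other probe set). Cdc23 read 1036 against 1659 (-0.70, but 0.02 by its other probe set). Mybl2, which encodes the B-MYB factor that acts at CHR elements, read 1858 and 2859 (-0.65), and -0.55 by its other probe set. Gtse1, a microtubule-associated protein of G2 and M phase, read 816 and 1246 (-0.63). Higher in the knockout were Cenpk (704 against 389, 0.83) and Nuf2 (640 against 440, 0.52), both of the kinetochore, the kinase gene Melk (1442 against 1014, 0.48) and Dlgap5, a spindle assembly protein (913 against 693, 0.37). Foxm1, a factor that activates mitotic genes with B-MYB, read 272 and 218 (0.29), and -0.01 by its other probe set.

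**Figure D5:**
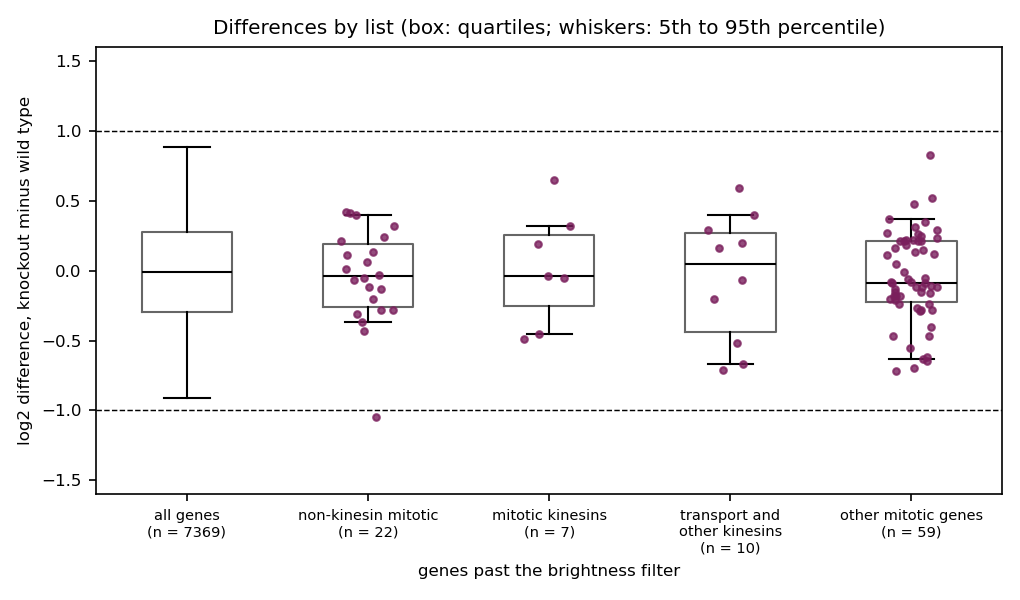
Log2 differences (y axis, knockout minus wild type) of genes past the filter by list (x axis), with boxes for quartiles, whiskers from the 5th to the 95th percentile and a point per gene. The medians of the 4 lists lie between -0.09 and 0.04, and Nek2, at -1.05, is the 1 plotted point past a 2-fold line.

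Of 13 kinesin partner names, 10 had a probe set and 7 were past the filter, with none 2-fold apart and a median log2 difference of -0.01. Kifap3, the cargo subunit of kinesin-2, read 653 in the knockout against 593 in the wild type (0.12), and 0.49 by its other passing probe set. Rab6a, a Golgi GTPase that binds Kif20a, read 1002 and 667 (0.56), the largest positive value of that list by brightest probe set. Its other passing probe set gave -0.10, so no direction can be given. The largest negative value was that of Trak1, which couples kinesin to mitochondria (170 and 203, -0.29, and -0.44 by its other passing probe set).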

How the data were processed

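The deposited values are intensities, 1 per probe set and array, from biotin-labelled total RNA purified on RNeasy columns, per the labels' protocols. The sources used here do not give the software, the scaling or detection calls. The 2% trimmed mean was 500.2 on both arrays, so they had a common scale. Of 22690 probe sets, 64 controls were left out. Symbols came from the platform annotation of 2016 and chromosomes from RefSeq GRCm38.p6. From the intensities, log2 values were median-centred (shift 0.02) and floored at the 25th percentile, and each gene's brightest probe set was kept where either array reached its median, which left 7369 of 12393 genes. The number of arrays limits the precision.

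Named were all members past 2-fold, the largest differences in each role, the X-linked member, genes whose probe sets disagree, and the largest values of the other lists. Some further members were named after their values were seen. The members and lists were chosen with earlier results of these data known. Alternatives covered normalization, floor, filter, probe set choice, X-linked genes and threshold. Calculations used Python 3.11.15 with pandas 2.3.3 and statsmodels 0.14.6 and were tested on simulated data.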

Additional observations from a re-analysis of the deposited data

Results flagged for a closer look

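The results singled out here are probe sets that the comparison of genes did not use, because another probe set of the gene was brighter, and that were brighter in the knockout by 2-fold or more. One Kif1a probe set had a log2 difference of 1.83, a lower bound set by the floor. One of Kif1b had 1.15, and one of Kif5b had 1.17. All 3 had wild-type values under the array median of 152.5 and passed the filter through the knockout array alone, so the filter itself favoured this direction. Among all passing probe sets with 1 gene symbol, 4.20% were 2-fold or more higher.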

How the results depend on the processing

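Nek2, the member called at 2-fold, stayed at least 2-fold lower under each of the alternatives that were run. Most of them could not change its value, since its only probe set was autosomal and read well above the floor and the filter. Only the normalization could, and the log2 difference was -1.07 with quantile normalization, -1.07 with lowess centring and -1.02 without centring. Without a filter, 1 member was at least 2-fold higher (Kif21a, 134 against 40.5, at least 2.77-fold), and with the mean of passing probe sets 1 was (Kif1a). At 1.5-fold, 2 members were higher (Kif22 and Kif1c) and 3 lower (Nek2, Kif17 and Kif5a), and of the other mitotic genes 1 was higher and 5 were lower. These counts grew because more genes or probe sets entered, or because the line was lower. Across the alternatives the median log2 difference ranged from -0.04 to -0.01 for non-kinesin mitotic genes, from -0.07 to 0.16 for transport and other kinesins, from -0.04 to 0.07 for mitotic kinesins and from -0.10 to -0.06 for other mitotic genes. Averaging passing probe sets moved 6 member genes by more than 0.22, namely Aurkb (to -0.01), Incenp (-0.04), Kif17 (-0.13), Kif22 (0.13), Kif3a (0.04) and Kif3b (-0.01). The averages of Kif17 and Kif3b include a probe set that passed the filter through the knockout array alone. No paired analysis was possible because each genotype had 1 array.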

Other observations

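Among the 25 mitotic genes with a promoter window, the 5 without a CHR match were Nek2 (-1.05), Kif18a (-0.45), Cenpe (-0.43), Mad2l1 (-0.28) and Birc5 (-0.20), and all 5 were lower on the knockout array. The 20 with a match had a median log2 difference of -0.01 and ran from -0.49 to 0.65, with 10 below 0. This split was noticed after the values were seen and is a description of 2 arrays. In the other mitotic genes, 17 of 26 without a match (65.4%) and 12 of 24 with one (50%) were below 0, with medians of -0.08 and 0.00. Over all genes past the filter the medians were -0.02 with a match (860 genes) and -0.02 without (5195 genes). The shares of these genes below 0 were 52.3% with a match and 51.7% without.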
